A study of Mus musculus with 20 samples.

Results

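The genes described here are 9 components of the Hedgehog signalling pathway that work at the primary cilium, Ptch1, Smo, Sufu, Gli1, Gli2, Gli3, Hhip, Kif7 and Gpr161. They were taken as the rows whose gene symbol equalled one of these names, and all 9 were found, once each, among the 21509 protein-coding genes listed in both abundance tables. Expression was measured by RNA sequencing of DC2 cells, an immortalized line of principal cells, the main absorptive and secretory cell type of the duct, derived from the distal caput of the mouse epididymis. In the first table, 6 libraries came from cells in microfluidic channels under laminar flow (3 h, shear stress 1 dyn/cm2), and 6 from cells kept in static condition for the same time. In the second table, 4 libraries came from cells transfected with a mixture of siRNAs against Ift88, and 4 from cells given control siRNA. All groups were the same immortalized line, and the cells of the flow experiment had been held in low-serum medium before, which favours cilium formation. According to the study's text both siRNA groups were exposed to flow, although the labels do not state it.

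Hedgehog signalling in vertebrates runs through the primary cilium, a single antenna-like organelle built by intraflagellar transport. Without ligand, the receptor Ptch1 keeps the transducer Smo out of the cilium, while Gpr161 raises cAMP there and promotes the processing of Gli3 to a repressor. When ligand binds Ptch1, Smo enters the cilium, Sufu releases the full-length Gli proteins at the tip that Kif7 organises, and transcription of Gli1, Ptch1 and Hhip rises. In the epididymis, Hedgehog ligands are known to be made within the duct. The comparisons ask whether flow, or a partial knockdown of the intraflagellar transport gene Ift88, went with a change in the transcripts of these genes.

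The libraries were similar in depth as far as TPM values show it. TPM is a transcript abundance that is corrected for transcript length and adds up to the same total in every library, so the number of reads behind a value was not known. From the smallest steps between low values, the relative number of reads behind 1 TPM ran from 0.893 to 1.23 times the median library in the flow table and from 0.926 to 1.33 times in the siRNA table. Between 15543 and 16562 genes were above 0 in the flow table. The Ift88 siRNA libraries had 15713 to 16682 genes above 0 and the control siRNA libraries 15292 to 15382, ranges that did not overlap. The sixth flow library is called static in its treatment field and flow in its title and column name, and was used as flow. The tables were normalised separately, so tests were run only within a table, and levels set side by side across the tables are untested.

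The identity of the line was looked at through marker lists. Among genes that mark principal cells, Crisp1 was listed at 0 in all 20 libraries, and Aqp9, the apical water and solute channel of these cells, stayed at or below 0.413 TPM. Gpx5, a secreted peroxidase of the caput, did not pass 0.0489 TPM. Among 6 epithelial markers, the keratins Krt18 and Krt19 were expressed, at 23.2 to 111 TPM and 6.21 to 26.0 TPM in the flow table, whereas Epcam did not pass 0.332 TPM in any library. Only 2 of the 6 averaged 1 TPM or more in the flow table, and 3 in the siRNA table. Markers of basal cells, clear cells, fibroblasts and smooth muscle stayed at or below 3.49 TPM apart from Itga6 and Car12, and Ptprc, which defines leukocytes, did not pass 0.0878 TPM. Within the immune and endothelial list only Cd68 was abundant, at 10.1 to 64.0 TPM in the flow table. The genes of that list summed to 87.4 to 99.1 TPM in the libraries of the siRNA table. These defining markers of differentiated principal cells were therefore at or near 0, and the cells are called DC2 cells below. As in any bulk sample, fewer cells with a transcript and less of it per cell cannot be told apart.

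Of the 9 genes, 6 were expressed at a mean of at least 1 TPM in both tables, Smo, Sufu, Gpr161, Gli3, Ptch1 and Kif7, and 3 were near 0 in both, Gli1, Gli2 and Hhip. In the flow table the order by mean TPM was Smo, Sufu, Gpr161, Gli3, Ptch1 and Kif7. Smo lay above Sufu and Sufu above Gpr161 in 12 of 12 libraries, with ranges that did not overlap. Gpr161 and Gli3 were neighbours that did not differ beyond their spread, since Gpr161 was the higher in 6 of 12 libraries, and Gli3 exceeded Ptch1 in 10 of 12 with overlapping ranges. In the siRNA table the order was Smo, Sufu, Gli3, Ptch1, Gpr161 and Kif7. There Smo exceeded Sufu in 7 of 8 libraries, and Sufu stood above Gli3 and Gli3 above Ptch1 in 8 of 8 with ranges apart. Gpr161 exceeded Kif7 in 8 of 8, with overlapping ranges. All 6 had lower mean TPM in the siRNA table than in the flow table, for Smo 14.3 against 62.6 TPM over all libraries, a difference between separately normalised tables that was not tested.

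Starting with the receptor, Ptch1 encodes the membrane protein that binds Hedgehog ligands and is itself a target of Gli proteins. The gene lies on the reverse strand at chr13:63508328-63573598 (GRCm38, GENCODE M21). Under flow its values in libraries 1 to 6 were 7.20, 7.03, 6.68, 10.9, 9.77 and 7.70 TPM. In static libraries 1 to 6 they were 6.72, 8.16, 7.84, 10.2, 10.5 and 9.31 TPM. Libraries 4 and 5 were the highest in both groups, the groups overlapped, and flow was the lower in 4 of 6 same-numbered pairs. Ptch1 averaged 8.22 ± 1.72 TPM in flow libraries against 8.78 ± 1.45 TPM in static libraries (SD, n = 6 each). Its log2 fold change was -0.09 (SE 0.13, 95% interval -0.38 to 0.20, adjusted p = 0.998 in limma).

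Smo, the seven-pass transducer that Ptch1 holds in check, was the most abundant of the 9 transcripts. It is encoded at chr6:29735503-29761365 on the forward strand (GRCm38). Flow libraries 1 to 6 held 61.0, 66.4, 62.9, 65.1, 70.2 and 49.2 TPM. Static libraries 1 to 6 held 56.4, 63.3, 69.1, 67.3, 71.1 and 49.6 TPM. The sixth library was the lowest and the fifth the highest in each group, and the groups overlapped over nearly their whole range. With 62.5 ± 7.24 TPM in flow and 62.8 ± 8.30 TPM in static libraries, Smo lay above 87.2% and 87.4% of all listed genes, and its log2 fold change was -0.01 (SE 0.10, 95% interval -0.22 to 0.21, adjusted p = 0.998). The ratio of Smo to Ptch1 TPM within a library averaged 7.81 ± 1.52 in flow and 7.29 ± 1.29 in static libraries.

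Gpr161 encodes an orphan G protein-coupled receptor of the ciliary membrane that couples to cAMP production and restrains the pathway. Across flow libraries 1 to 6 it was found at 8.05, 8.77, 7.56, 9.98, 13.9 and 11.2 TPM. Across static libraries 1 to 6 it was found at 7.38, 7.76, 8.63, 12.3, 12.9 and 9.13 TPM. Library 5 was the highest in each group, and the 6 libraries numbered 1 to 3 lay below the 6 numbered 4 to 6 whatever their treatment. The means were 9.92 ± 2.37 and 9.69 ± 2.36 TPM, and the log2 fold change was 0.03 (SE 0.16, 95% interval -0.32 to 0.38, adjusted p = 0.998 in limma).

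Sufu, the cytoplasmic inhibitor that binds Gli proteins, varied least among the 6 expressed genes under flow, with an SD of 5.93% of its mean. It ranged from 21.8 to 26.1 TPM in flow libraries, with a median of 24.5 TPM, and from 20.4 to 28.9 TPM in static libraries, with a median of 25.5 TPM. Flow was the higher in 3 of 6 same-numbered pairs, and the log2 fold change was -0.05 (SE 0.08, 95% interval -0.23 to 0.13, adjusted p = 0.998). Kif7, the kinesin that orders the ciliary tip, ranged from 3.03 to 4.99 TPM with flow and from 3.08 to 4.71 TPM without. Its log2 fold change was -0.09 (SE 0.12, 95% interval -0.35 to 0.17, adjusted p = 0.998), with flow the lower in 4 of 6 pairs.

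Gli3, the Gli protein that acts mostly as a repressor after processing, was the only Gli family transcript well above 0. It is encoded at chr13:15463235-15730026 on the forward strand (GRCm38). Its values in flow libraries 1 to 6 were 9.64, 8.07, 8.45, 10.6, 12.2 and 10.1 TPM. In static libraries 1 to 6 they were 7.21, 8.62, 9.29, 9.66, 11.3 and 9.70 TPM. Here too library 5 was the highest of each group, and the groups overlapped. The means were 9.86 ± 1.52 and 9.29 ± 1.33 TPM, and the log2 fold change was 0.08 (SE 0.12, 95% interval -0.17 to 0.33, adjusted p = 0.998 in limma). Gli3 made up 97.0% or more of the summed TPM of Gli1, Gli2 and Gli3 in every library of the flow table, and 98.7% or more in the siRNA table. The TPM of Sufu was 2.50 ± 0.36 times that of Gli3 with flow and 2.73 ± 0.21 times without.

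**Figure D1:**
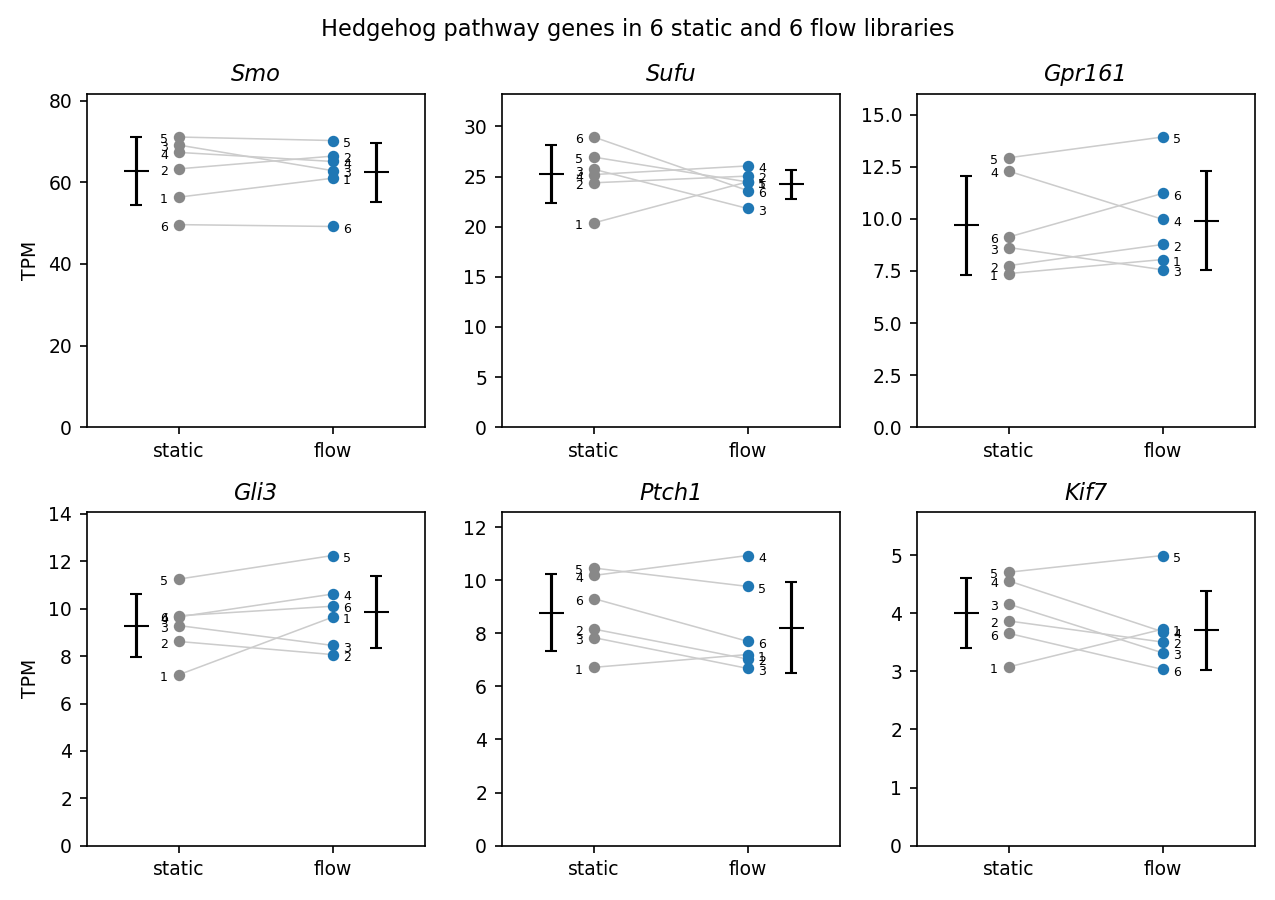
TPM (linear axes from 0) of the 6 expressed Hedgehog pathway genes in 6 static and 6 flow libraries. Each point is a library with its replicate number, grey lines join the same number, and black bars give the mean and SD. The groups overlap for every gene, and library 5 lies at or near the top in both groups for Smo, Gpr161, Gli3, Ptch1 and Kif7.

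None of the 6 expressed genes was called under flow. At an adjusted p under 0.05 with more than a 1.5-fold change, limma on log2(TPM + 1) called 0 of the 6, with 0 also at an unadjusted p under 0.05, where 3.85% of all genes tested had such a p. The same rule called 12 of 11388 genes, 0.105% of those tested, and at that share a count of 0 among 6 genes says nothing particular about them. A fit blocked on the replicate number called 68 genes, 0.597%, and again 0 of the 6, with adjusted p from 0.709 to 0.977. With the block, the 95% intervals of all 6 lay between -0.30 and 0.26. Log2 fold changes had a median of -0.03 over the 6 genes and of -0.03 over all genes tested. Without the block, the 95% intervals of all 6 lay between -0.38 and 0.38, inside the 1.5-fold limits of 0.585 on the log2(TPM + 1) scale. This scale understates changes of low genes. With a pseudocount of 0.1 in place of 1, the intervals ran from -0.43 to 0.41.

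The 3 remaining genes are the output of the pathway and its main activator, and they were near 0. Gli1, which amplifies the signal and is the usual readout of active Hedgehog signalling, was listed at 0.0165, 0.0332, 0.0281, 0.0136, 0.275 and 0.205 TPM in flow libraries 1 to 6. Static libraries 1 to 6 had 0, 0.0166, 0.0326, 0.0669, 0.0711 and 0.181 TPM. The highest values were in flow libraries 5 and 6 and static library 6, and the other 9 libraries stayed at or below 0.0711 TPM. These values came in steps. After correction for relative depth, 9 of the 11 values above 0 were whole multiples of the smallest within 0.05, from 1 to 12 steps, and the other 2 were 14.8 and 10.2 steps. If the smallest value is 1 read, the 12 libraries together held about 54 reads of Gli1. The number of genes above 0 was 15710 in flow library 5, 16300 in flow library 6 and 16562 in static library 6, the last being the highest of the 12, and its part in the Gli1 values was not tested.

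Gli2, the main transcriptional activator of the pathway, was listed at 0 in 6 of the 12 libraries of the flow table. Static libraries 1 and 6 had 0.0997 and 0.113 TPM, or 10.6 and 10.7 steps, which were not whole multiples. The other 4 above 0 had 0.00995 to 0.0111 TPM, 1 step each. Hhip, a decoy receptor on the cell surface that binds ligand, was listed at 0 in 11 of 12 libraries and at 0.0154 TPM, 1 step, in static library 6. With no filter on low values, where 18564 genes were tested, the adjusted p was 1.00 for each of the 3 genes.

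**Figure D2:**
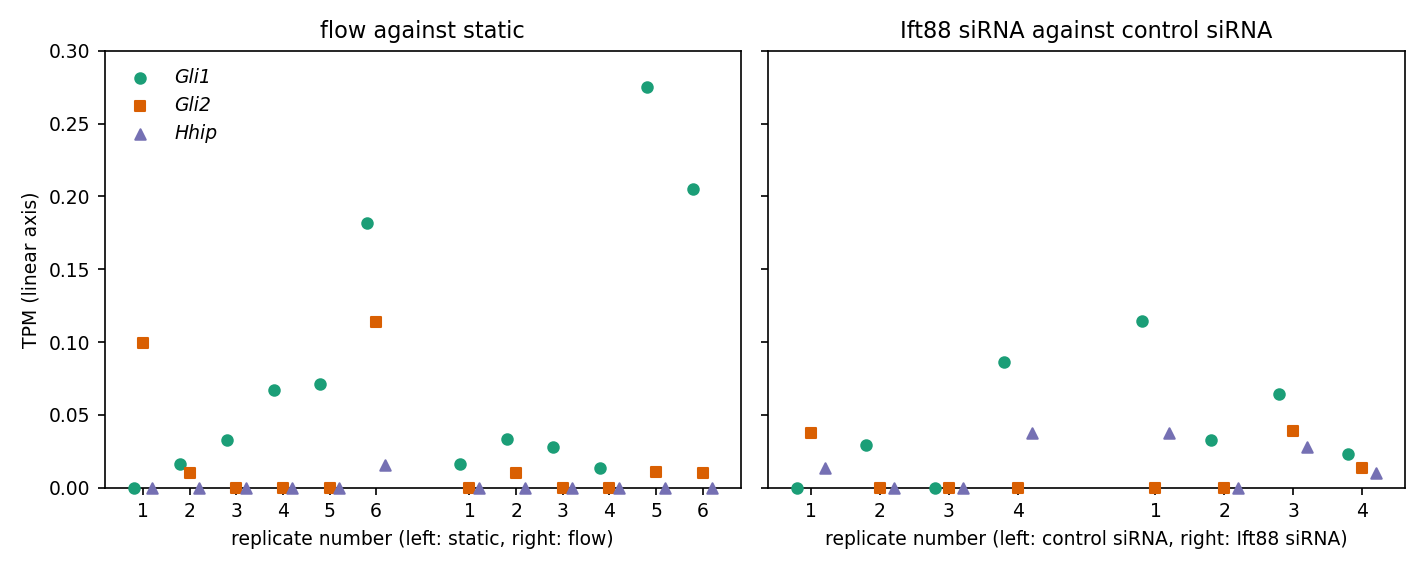
TPM (linear axis) of Gli1 (circles), Gli2 (squares) and Hhip (triangles) in each library of the flow table, left, and the siRNA table, right, by replicate number. All values lie below 0.3 TPM, and the highest Gli1 values are those of flow libraries 5 and 6, at 0.275 and 0.205 TPM.

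Ptch1 and Hhip are both textbook Gli targets, and Ptch1 was expressed while Hhip was near 0, so their promoter windows are shown. The windows are RefSeq's for GRCm38.p6 and run from 250 bases before to 50 bases after a transcription start, written 5′ to 3′ along the gene, with CpG dinucleotides in capitals. The Ptch1 window, at chr13:63565686-63565985 on the reverse strand, belongs to a start inside the annotated gene, and the Hhip window is at chr8:80057959-80058258 on the reverse strand.
Ptch1: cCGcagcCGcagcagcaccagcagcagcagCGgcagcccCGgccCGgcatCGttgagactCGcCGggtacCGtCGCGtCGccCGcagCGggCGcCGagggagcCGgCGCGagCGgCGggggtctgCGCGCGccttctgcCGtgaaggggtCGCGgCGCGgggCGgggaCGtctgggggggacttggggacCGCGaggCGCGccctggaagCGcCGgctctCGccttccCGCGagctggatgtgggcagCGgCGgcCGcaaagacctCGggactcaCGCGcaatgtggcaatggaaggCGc
Hhip: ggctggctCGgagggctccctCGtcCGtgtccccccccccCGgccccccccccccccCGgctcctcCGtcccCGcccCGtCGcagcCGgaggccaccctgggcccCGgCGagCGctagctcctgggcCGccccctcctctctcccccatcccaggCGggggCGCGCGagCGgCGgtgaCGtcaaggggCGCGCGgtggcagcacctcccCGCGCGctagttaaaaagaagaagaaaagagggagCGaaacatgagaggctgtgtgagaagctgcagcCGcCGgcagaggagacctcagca
The Ptch1 window had 76.3% G + C and 47 CpG, and the Hhip window 73.7% and 30 CpG, against medians of 52.7% and 7 over all 32851 promoters. A CpG-rich window was thus shared by the expressed gene and by the gene near 0. The 9-base Gli consensus GACCACCCA, searched on both strands, was in 83 of all promoters, 0.253%, and in 0 of the 9 windows found for 8 of the 9 genes. That says only that these letters are not in these windows. Gpr161 had the fewest CpG, 1 and 5 in its 2 windows. The promoter of Gli1 was not analysed here.

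Ift88 itself was looked at before the siRNA comparison. Ift88, a subunit of the intraflagellar transport complex, stood at 1.71, 1.27, 1.28 and 0.917 TPM in Ift88 siRNA libraries 1 to 4 and at 4.21, 4.08, 4.15 and 4.12 TPM in control siRNA libraries 1 to 4. The groups did not overlap. The mean was 1.30 ± 0.33 TPM against 4.14 ± 0.05 TPM (SD, n = 4 each), 31.3% of the control, with a log2 fold change of -1.17 (SE 0.13, adjusted p = 0.00212 in limma). The knockdown was thus partial, and the study reports fewer ciliated cells and shorter cilia after it, not cells without cilia. In the other table Ift88 was at 4.43 ± 0.98 TPM with flow and 4.64 ± 0.38 TPM without.

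With Ift88 reduced, Ptch1 was measured at 4.76, 4.32, 4.98 and 4.34 TPM in Ift88 siRNA libraries 1 to 4. Control siRNA libraries 1 to 4 had 3.94, 4.04, 3.88 and 4.53 TPM. Control library 4 lay within the range of the Ift88 siRNA libraries and the other 3 controls lay below it. The log2 fold change of Ptch1, 0.14 (SE 0.11, 95% interval -0.11 to 0.38, adjusted p = 0.629), did not pass the test. Gpr161 was at 1.73, 1.70, 1.96 and 1.66 TPM in Ift88 siRNA libraries and at 1.72, 1.38, 1.74 and 1.44 TPM in control siRNA libraries. Its groups overlapped through control libraries 1 and 3, and its log2 fold change was 0.11 (SE 0.13, 95% interval -0.17 to 0.38, adjusted p = 0.757).

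Smo differed little between the siRNA groups. Ift88 siRNA libraries 1 to 4 had 13.5, 14.7, 15.5 and 13.7 TPM and control siRNA libraries 13.7, 13.0, 16.6 and 13.5 TPM. The log2 fold change of Smo was 0.02 (SE 0.10, 95% interval -0.20 to 0.23, adjusted p = 0.961). Gli3, whose protein is processed at the cilium, was at 8.60, 7.49, 7.62 and 5.92 TPM with Ift88 siRNA and at 8.26, 7.002, 9.26 and 6.91 TPM with control siRNA. The lowest Gli3 value was in Ift88 siRNA library 4 and the highest in control library 3, the groups overlapped, and the log2 fold change was -0.08 (SE 0.13, 95% interval -0.36 to 0.21, adjusted p = 0.846).

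Sufu ranged from 11.5 to 15.2 TPM with Ift88 siRNA and from 12.2 to 13.5 TPM with control siRNA, with a log2 fold change of 0.04 (95% interval -0.18 to 0.26, adjusted p = 0.907). Kif7, the lowest of the 6 genes, ranged from 1.01 to 1.38 TPM with Ift88 siRNA. In control siRNA libraries 1 to 4 it was at 0.644, 1.06, 1.52 and 1.18 TPM, an SD of 32.9% of the mean, and both the lowest and the highest Kif7 values were controls. Its log2 fold change was 0.11 (SE 0.16, 95% interval -0.23 to 0.45, adjusted p = 0.809).

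**Figure D3:**
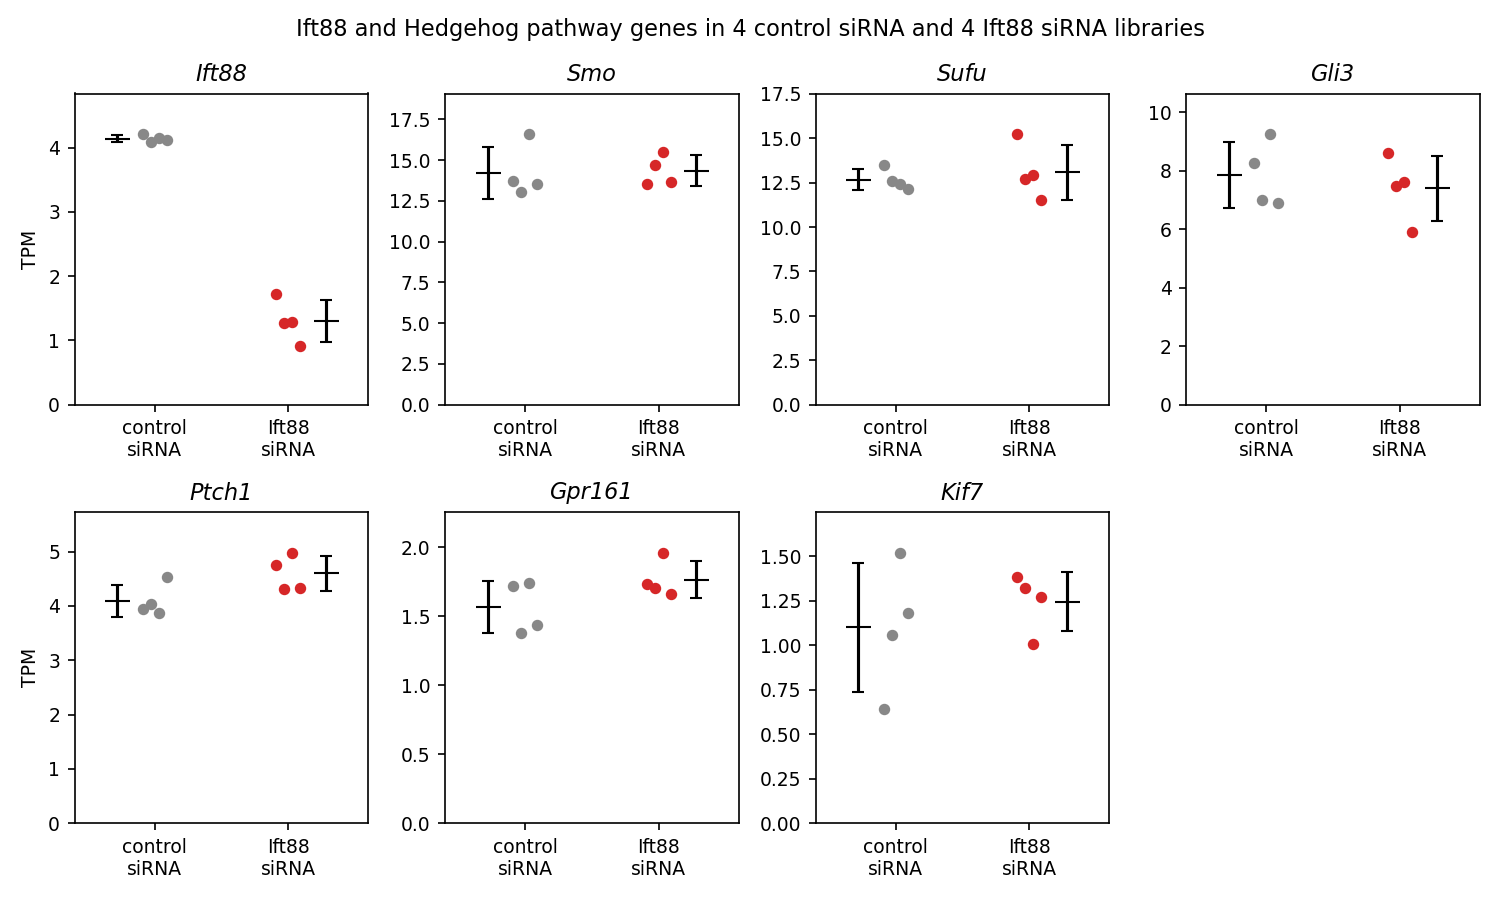
TPM (linear axes from 0) of Ift88 and the 6 expressed Hedgehog pathway genes in 4 control siRNA and 4 Ift88 siRNA libraries. Points are libraries, in replicate order from left to right, and black bars give the mean and SD. Ift88 separates, at 0.917 to 1.71 TPM against 4.08 to 4.21 TPM, and every Hedgehog gene overlaps between the groups.

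The siRNA comparison called 0 of the 6 genes, with 0 also at an unadjusted p under 0.05 in limma, where 13.9% of all genes tested had such a p. It called 25 of 11209 genes tested, 0.223% (17 higher and 8 lower, or 12 and 10 with median-of-ratios scaling), and 44 genes, 0.393%, with the replicate number as a block, which again called 0 of the 6. The 6 genes had a median log2 fold change of 0.07, against 0.02 for all genes tested, with 5 values above 0 and that of Gli3 below. Their 95% intervals lay between -0.36 and 0.45, inside the 1.5-fold limits. With a pseudocount of 0.1, the intervals of Kif7 and Gpr161 reached 0.81 and 0.594, past the limit of 0.585, so for these low genes the intervals do not exclude a rise of more than 1.5-fold on that scale.

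**Figure D4:**
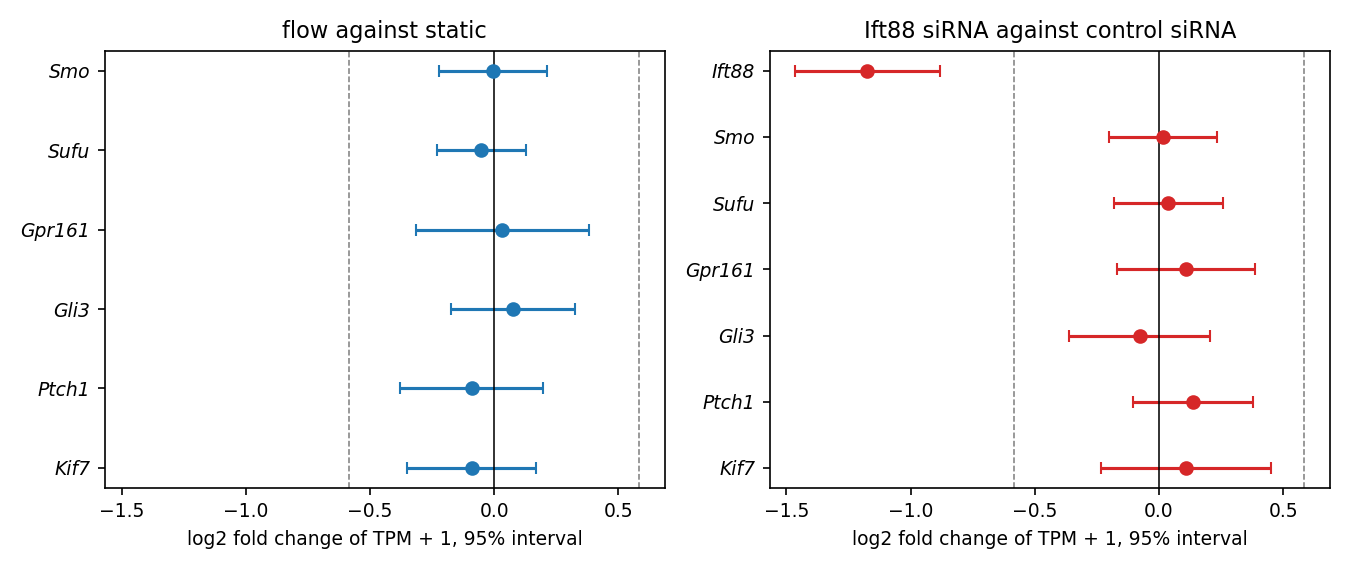
Log2 fold changes of TPM + 1 (points) with 95% intervals from limma for flow against static, left, and Ift88 siRNA against control siRNA, right. Dashed lines mark 1.5-fold. Only Ift88, at -1.17, lies outside them, and every Hedgehog gene's interval crosses 0.

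Gli1, Gli2 and Hhip were near 0 in the siRNA table too. Gli1 was at 0.115, 0.0329, 0.0643 and 0.0229 TPM in Ift88 siRNA libraries 1 to 4, and at 0, 0.0295, 0 and 0.0861 TPM in control siRNA libraries. All 6 values above 0 were whole steps, from 1 to 4. Hhip was above 0 in 3 Ift88 siRNA and 2 control siRNA libraries and did not pass 0.0377 TPM. Gli2 was above 0 in 2 and 1 libraries and did not pass 0.0387 TPM. Both genes had between 1 and 3 steps where they were above 0. Ift88 siRNA libraries had more genes above 0 than control libraries, 15713 or more against 15382 or fewer, and its part in these values was not tested. With no filter, the adjusted p was 0.734 for Gli1, 0.957 for Gli2 and 0.919 for Hhip.

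The ligands of the pathway were near 0 as well. Shh, Ihh and Dhh did not pass 0.277 TPM in any of the 12 libraries of the flow table and 0.264 TPM in the siRNA table. Hhat, the enzyme that attaches palmitate to the ligands, was at 1.48 ± 0.21 TPM with flow and 1.54 ± 0.35 TPM without. Disp1, the transporter that releases them, was at 15.6 ± 3.21 and 15.0 ± 3.51 TPM. Of the 8 genes of ligand making and release, 2 were tested in each comparison and 0 were called. Of all genes tested, 0.105% were called under flow and 0.223% with Ift88 siRNA. Among 6 other receptors and co-receptors, Cdon, which helps present ligand to Ptch1, was the highest, at 11.8 to 33.8 TPM in the flow table and 2.70 to 4.65 TPM in the siRNA table. The values of Cdon in library 5 were 33.8 TPM with flow and 33.7 TPM without, the highest of each group. Boc, of the same family, averaged 1.07 ± 0.20 TPM with flow and 1.03 ± 0.22 TPM without.

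Genes that carry the pathway's proteins into and out of the cilium were expressed throughout. All 21 were tested in both comparisons and 0 were called, against 0.105% and 0.223% of all genes tested. Under flow their median log2 fold change was -0.05, with 16 values below 0, against -0.03 for all genes. With Ift88 siRNA the median was 0.03, against 0.02. Evc and Evc2, which tether Smo at the base of the cilium, were at 78.8 ± 44.5 and 36.2 ± 10.3 TPM with flow and at 85.0 ± 29.6 and 38.5 ± 4.77 TPM without. Tulp3, which delivers Gpr161 to the cilium, was at 49.3 ± 6.75 and 51.5 ± 8.12 TPM.

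Mosmo came closest to a call with Ift88 siRNA and is named after its values were seen. It encodes a membrane protein that lowers the amount of Smo at the cell surface. Mosmo was at 14.2, 12.7, 12.2 and 12.1 TPM in Ift88 siRNA libraries 1 to 4 and at 18.7, 16.5, 19.7 and 15.0 TPM in control siRNA libraries. The groups did not overlap, and the log2 fold change was -0.42 (SE 0.10, unadjusted p = 0.00157, adjusted p = 0.0991 over all genes in limma). The adjusted p stayed above 0.05 in every fit run, with values of 0.0578 with the replicate block and 0.0592 with another scaling. Under flow Mosmo had a log2 fold change of 0.01 (SE 0.08, adjusted p = 0.998).

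The cyclases and kinases of cAMP signalling and the kinases and ubiquitin ligases that act on Gli proteins formed the largest list. Of its 24 genes, 22 were tested under flow and 21 with Ift88 siRNA. In either comparison 0 were called, against 0.105% and 0.223% of all genes tested. Gnas, which encodes the stimulatory G protein alpha subunit, was the highest in the flow table, at 627 ± 26.7 TPM with flow and 639 ± 53.2 TPM without. Prkaca, the catalytic subunit of protein kinase A, was at 82.8 ± 13.4 and 87.1 ± 19.5 TPM. With Ift88 siRNA, Prkaca was at 34.7 ± 2.67 TPM against 41.9 ± 5.84 TPM, a log2 fold change of -0.26 (SE 0.10, adjusted p = 0.278). Csnk1e, a casein kinase, had the smallest p of the pathway genes under flow, with a log2 fold change of 0.27 (SE 0.10, adjusted p = 0.955, and 0.0598 with the replicate block).

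Other genes known as Hedgehog targets in various tissues gave no called gene either. Of 15, 7 were tested under flow, with a median log2 fold change of 0.15 against -0.03 for all genes, and 8 with Ift88 siRNA, with a median of -0.01 against 0.02. In limma, 0 of the 7 under flow and 4 of the 8 with Ift88 siRNA had an unadjusted p under 0.05. With Ift88 siRNA the log2 fold changes ran from -0.36 to 0.34, 4 above 0 and 4 below. Ccnd1, the G1 cyclin, was at 121 ± 45.6 TPM with flow and 104 ± 29.0 TPM without, a log2 fold change of 0.17 (SE 0.25, adjusted p = 0.998). With Ift88 siRNA, Ccnd1 was at 292 ± 11.4 TPM against 329 ± 13.7 TPM, a log2 fold change of -0.17 (SE 0.06, adjusted p = 0.191). Foxf1, a forkhead factor that answers to Hedgehog in mesenchyme, was expressed at 5.07 to 13.5 TPM in the flow table, and Nkx2-2, a target in the neural tube, was listed at 0 in 11 of 12. Across the 5 lists, 73 genes in all, 56 were tested under flow and 55 with Ift88 siRNA, with 3 and 10 at an unadjusted p under 0.05 and 0 called. Over all genes tested, 3.85% and 13.9% had an unadjusted p under 0.05, and 0.105% and 0.223% were called. At such shares of calls a count of 0 says nothing particular about these lists.

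**Figure D5:**
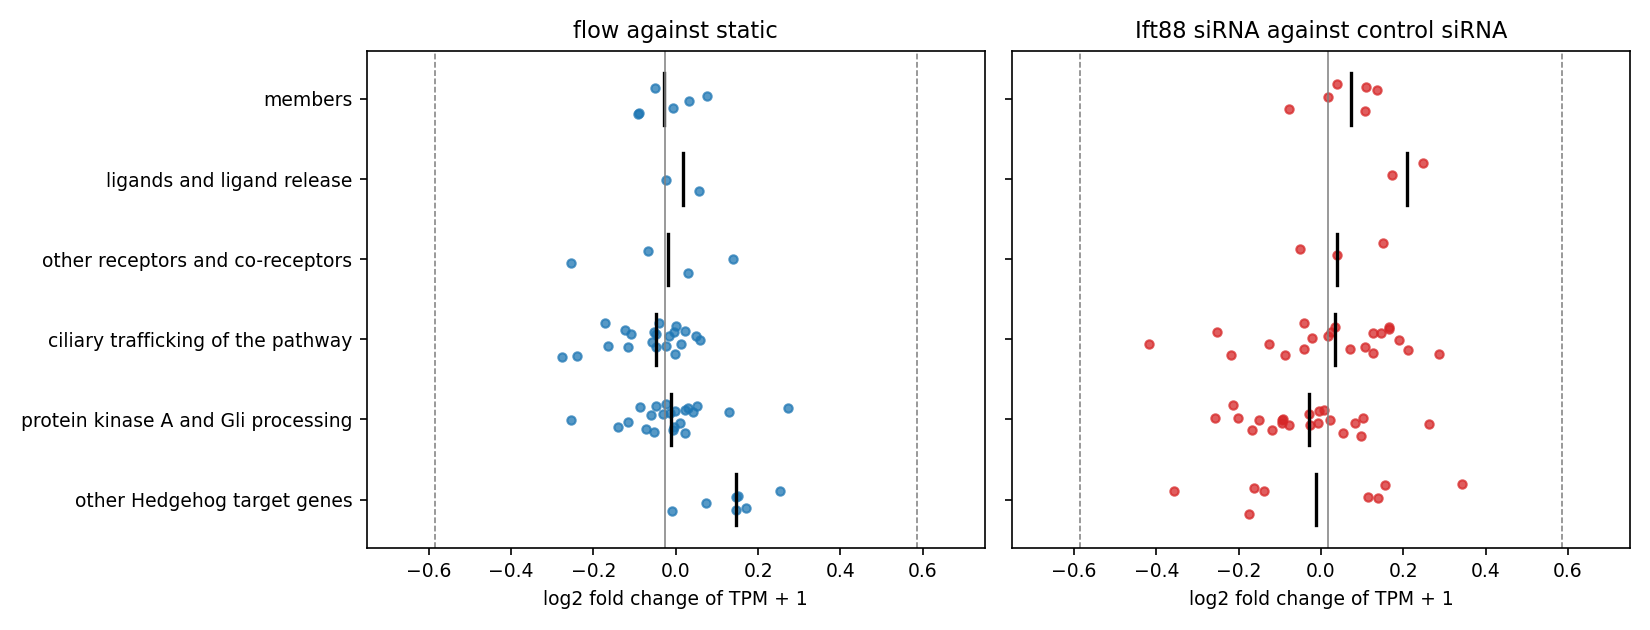
Log2 fold changes of TPM + 1 for the tested genes of the 9 members and 5 further pathway lists, flow against static on the left and Ift88 siRNA against control siRNA on the right. Each point is a gene, black bars are list medians, the grey line is the median of all genes tested and dashed lines mark 1.5-fold. No gene of any list reaches them, the farthest being Mosmo at -0.42.

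Variation between libraries was larger for some members than the difference between flow and static cells. The labels name no batch, but same-numbered flow and static libraries varied together. Gpr161 averaged 8.02 ± 0.57 TPM in the 6 libraries numbered 1 to 3 and 11.6 ± 1.82 TPM in the 6 numbered 4 to 6 (SD), with ranges apart. Gli3 averaged 8.55 ± 0.87 and 10.6 ± 1.01 TPM, also apart, and Ptch1 7.27 ± 0.60 and 9.72 ± 1.14 TPM with overlapping ranges. Smo, at 63.2 ± 4.41 and 62.1 ± 10.1 TPM, did not separate the sets. Of all 11388 genes, 9.43% had ranges apart between these sets. Within libraries 1 to 3 the log2 fold change under flow was 0.03 for Gpr161, 0.06 for Gli3 and -0.10 for Ptch1, and within libraries 4 to 6 it was 0.03, 0.10 and -0.08, with no adjusted p under 0.05.

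The genes whose library-to-library pattern was most like that of each member were found over 10894 other genes, as the smaller of the Pearson r over the 12 flow-table and the 8 siRNA-table libraries, on deviations from the group means. For Gpr161 these were Ntn4, Eif4g3 and Pja2, with a smaller r of 0.944, 0.929 and 0.919. For Gli3 they were Med13l, Edem3 and Bod1l, at 0.933, 0.933 and 0.932. Soga1, Id3 and Wdr11 were most like Ptch1, at 0.831, 0.800 and 0.788. Hoxd9, Ube2r2 and Pnrc2 were most like Smo, at 0.863, 0.862 and 0.858. Rin2, Akap10 and Casp8ap2 came nearest to Sufu, at 0.864, 0.863 and 0.850, and Ephb4, Zkscan3 and Aopep to Kif7, at 0.798, 0.791 and 0.780. The libraries share their preparation and these are the extremes of many values, so they are given as descriptions. Between members, Gli3 and Gpr161 had r of 0.842 in the flow table and 0.681 in the siRNA table, whereas Ptch1 and Gli3 had 0.847 in the first and -0.04 in the second.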

How the data were processed

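The authors sequenced poly(A)-selected directional libraries of DC2 cells as read pairs and, per the study's methods, used kallisto to assign reads to Ensembl mouse transcripts, tximport to sum transcripts into genes and DESeq2 to call genes. The submitters' processing notes list fastp 0.20.0, FastQC 0.11.8, MultiQC 1.8 and kallisto 0.46.2. The authors deposited 2 gene tables in TPM, which sum to the same total in every library, so depth is unknown, no count test was used and relative depth came from the steps between values of at most 0.3 TPM. All 20 columns were matched to samples by name, and 78 of 21509 genes had no symbol.

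Here, genes that averaged 1 TPM or more in a table were tested on log2(TPM + 1) with limma 3.58.1 (R 4.3.3, intensity trend), two-sided, with Benjamini-Hochberg adjustment over all genes tested in that table. Adjusted p-values come from these fits. The script was tested on simulated data. The members and lists were chosen with earlier results of these data known. Named were all 9 members, Ift88, in each list up to 4 genes of highest level or defining role, and the 3 genes most like each member. Flow and static libraries with the same number varied together, with r from 0.294 to 0.662 over 6 pairs, and 4 of 6 were best with their own number. The block was therefore run as an alternative. Errors, intervals and adjusted p of single genes are from the fit without the block unless the block is named. Nothing in the labels says that libraries came from separate cultures, so p-values measure the spread between these samples. Other alternatives were no filter or an average of 0.1 TPM or more, a smaller pseudocount (0.1), scaling by the median of ratios, weights per library, each library left out, libraries 1 to 3 or 4 to 6 alone, and the sixth flow library as static. Coordinates and promoters are GRCm38, not the Ensembl 110 reference of the authors, and were used for place and sequence alone. Some genes of the lists are not reported here by name. Figures were drawn with matplotlib 3.10.9.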

Additional observations from a re-analysis of the deposited data

Results flagged for a closer look

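Of 24 groups of 4 or 6 libraries looked at for the 6 expressed Hedgehog genes, 1 held a library far from the others. Kif7 was at 4.99 TPM in flow library 5, and the gap to the next value was 0.647 of the range of its group. Chance alone gives such a gap in about 5% of groups, so 1 in 24 is about that share. Static library 5 also had the highest Kif7 value of its group, 4.71 TPM. Without flow library 5 the log2 fold change of Kif7 was -0.16, still with no call.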

How the results depend on the processing

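In every alternative run, 0 of the 6 expressed Hedgehog genes was called in either comparison, as was 0 of all 9 with no filter, the only fit to hold Gli1, Gli2 and Hhip, while Ift88 was called under each of its alternatives, with log2 fold changes from -1.26 to -1.09 when 1 library was left out. The log2 fold changes of members changed sign in 13 of 132 alternative values under flow and in 7 of 90 with Ift88 siRNA, the largest of these being 0.109 and 0.0323 in size. The 132 and 90 include fits that leave a member's fold change as it was by design, so they could not change its sign. Those fits are no fold threshold, no filter, the lower filter of 0.1 TPM and the replicate block. Counting the sixth flow library as static gave -0.0371 for Gpr161 and 0.109 for Smo. Smo was 0.0219 with median-of-ratios scaling and 0.0151 in libraries 1 to 3 alone under flow, and -0.00132 with that scaling in the siRNA comparison, and Sufu was 0.0208 in libraries 1 to 3 alone. Leaving out 1 library each time gave ranges that crossed 0 under flow for Smo (-0.0700 to 0.0607) and Gpr161 (-0.0631 to 0.115), and with Ift88 siRNA for Smo (-0.0204 to 0.0883), Sufu (-0.0323 to 0.0932), Gli3 (-0.144 to 0.0136) and Kif7 (-0.00287 to 0.203). The causes were not tested.

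The number of all genes called moved more than the members did. Under flow, 12 became 2 with no filter, 28 with median-of-ratios scaling, 86 with library weights, 68 with the replicate block, 0 with the sixth flow library as static (181 at an unadjusted p under 0.05), 5 in libraries 1 to 3 alone, 56 in libraries 4 to 6 alone, and 5 to 87 when 1 library was left out, the 87 without flow library 2 and 5 to 7 without flow library 4 or any 1 of static libraries 1 to 4. With Ift88 siRNA, 25 became 71 with no fold threshold, 6 with no filter, 16 at a mean of at least 0.1 TPM, 48 with library weights, 44 with the replicate block, and 11 to 23 when 1 library was left out, with 11 to 14 without Ift88 siRNA library 1 or 2 or control siRNA library 1, 3 or 4. The siRNA libraries shared only their numbers (r from 0.00276 to 0.259, with 2 of 4 best with their own number), and the block changed no member's call in either comparison. Low TPM values of Gli1, Gli2 and Hhip limit what could be seen of these genes.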
